A study of Rattus norvegicus with 7 samples.

Results

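The cell cycle genes described here are a list of 45 symbols: 24 genes of mitosis, 14 genes of S phase and 7 genes of G1 and the G1 to S step. A symbol in the deposited feature tables matched 43 of the 45, out of 25399 genes in all, which left 23 mitotic, 14 S phase and 6 G1 and G1/S genes. Ccnb2 and E2f1 had no match by symbol and their levels were not analysed here. Their transcripts were counted in kidney nuclei of the HSRA rat, a strain in which part of the animals are born with a single kidney, at 4 weeks of age. The 1-kidney group held 3 libraries and the 2-kidney group 4, which the labels' protocol calls HSRA-S and HSRA-C, and each library came from an archived central piece of kidney that included cortex and medulla. The library names carry 2 set codes. All 3 of the 1-kidney libraries and replicates 1 and 2 of the 2-kidney group were of set P1117, and replicates 3 and 4 of the 2-kidney group were of set P1117B.

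The cell cycle runs through G1, S phase, G2 and mitosis, and each step has its own wave of transcripts. E2F factors, released from the retinoblastoma protein by cyclin D and cyclin E kinases, switch on the genes of DNA replication at the start of S phase. The genes of mitosis follow in G2, when the MuvB complex with B-MYB, and FOXM1, act on promoters that carry a cell cycle homology region (CHR). In the kidney, proximal tubule and other tubule epithelium can re-enter the cycle during postnatal growth and after injury, whereas the mature podocyte, the filtering cell of the glomerulus, is known for staying outside it.

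The promoters of the members differ in their letters by phase, and 7 of them are printed because the results below turn on these genes. RefSeq (rat build GRCr8) held a promoter of 300 bases, 250 before and 50 after the start, for 34 of the 45 members. Both strands were searched for the CHR (TTTGAA or TTCGAA), for the E2F site (TTTCGCGC, TTTGGCGC, TTTCCCGC or TTTGCCGC) and for the CCAAT box (CCAAT), the site of NF-Y. Matches are in capitals, and each sequence reads 5′ to 3′ along the gene. Mki67 (chr1:199952544-199952843, minus strand) codes for the coat protein of mitotic chromosomes, Top2a (chr10:84473044-84473343, minus strand) for the topoisomerase that untangles them, Ccnb1 (chr2:33655176-33655475, minus strand) for the mitotic cyclin B1, and Kif11 (chr1:244536617-244536916, plus strand) for the kinesin that pushes the spindle poles apart. Mcm3 (chr9:30733697-30733996, minus strand) and Mcm6 (chr13:42404303-42404602, minus strand) code for subunits of the replicative helicase, and Prim2 (chr9:43400405-43400704, minus strand) for the large subunit of primase.
Mki67: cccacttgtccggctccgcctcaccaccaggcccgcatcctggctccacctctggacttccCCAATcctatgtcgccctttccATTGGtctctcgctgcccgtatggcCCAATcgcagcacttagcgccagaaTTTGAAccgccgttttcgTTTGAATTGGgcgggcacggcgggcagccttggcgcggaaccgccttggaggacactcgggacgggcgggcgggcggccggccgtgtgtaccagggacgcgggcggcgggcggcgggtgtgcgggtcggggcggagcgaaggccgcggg
Top2a: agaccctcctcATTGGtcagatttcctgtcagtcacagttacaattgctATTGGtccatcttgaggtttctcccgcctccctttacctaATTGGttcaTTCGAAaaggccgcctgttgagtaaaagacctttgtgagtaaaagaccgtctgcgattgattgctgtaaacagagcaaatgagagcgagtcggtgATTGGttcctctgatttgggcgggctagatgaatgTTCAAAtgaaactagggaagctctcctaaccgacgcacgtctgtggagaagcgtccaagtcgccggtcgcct
Ccnb1: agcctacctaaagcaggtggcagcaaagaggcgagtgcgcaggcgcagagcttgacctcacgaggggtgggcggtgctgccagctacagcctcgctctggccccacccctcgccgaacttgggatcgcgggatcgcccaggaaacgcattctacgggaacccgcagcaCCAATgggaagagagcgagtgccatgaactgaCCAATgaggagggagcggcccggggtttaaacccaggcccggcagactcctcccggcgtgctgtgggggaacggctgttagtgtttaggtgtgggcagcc
Kif11: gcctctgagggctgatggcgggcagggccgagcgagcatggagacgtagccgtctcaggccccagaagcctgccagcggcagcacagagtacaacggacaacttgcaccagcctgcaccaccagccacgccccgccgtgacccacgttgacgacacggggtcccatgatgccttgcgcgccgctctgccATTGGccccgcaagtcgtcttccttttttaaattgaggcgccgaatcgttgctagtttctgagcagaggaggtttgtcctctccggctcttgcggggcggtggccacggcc
Mcm3: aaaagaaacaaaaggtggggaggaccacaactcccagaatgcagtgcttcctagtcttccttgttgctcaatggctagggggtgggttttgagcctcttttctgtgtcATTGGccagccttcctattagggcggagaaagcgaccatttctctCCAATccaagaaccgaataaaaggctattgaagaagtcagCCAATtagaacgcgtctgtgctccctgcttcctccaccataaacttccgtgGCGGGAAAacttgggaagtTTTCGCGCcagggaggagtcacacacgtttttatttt
Mcm6: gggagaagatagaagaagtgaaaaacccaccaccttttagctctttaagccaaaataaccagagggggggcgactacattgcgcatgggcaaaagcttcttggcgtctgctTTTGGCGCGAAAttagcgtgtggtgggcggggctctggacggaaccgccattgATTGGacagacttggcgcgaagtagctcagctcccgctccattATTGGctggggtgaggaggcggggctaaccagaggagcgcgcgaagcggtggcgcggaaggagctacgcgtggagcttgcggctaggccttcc
Prim2: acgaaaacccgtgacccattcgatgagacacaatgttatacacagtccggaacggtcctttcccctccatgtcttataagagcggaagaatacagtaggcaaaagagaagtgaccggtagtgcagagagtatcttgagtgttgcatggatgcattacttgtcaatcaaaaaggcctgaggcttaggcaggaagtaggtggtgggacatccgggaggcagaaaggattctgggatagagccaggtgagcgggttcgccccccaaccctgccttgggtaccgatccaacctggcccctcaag

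Mki67 held 2 CHR matches, the second of which overlaps a CCAAT box by 1 base, and Top2a held 2 CHR matches among 4 CCAAT boxes. Ccnb1 and Kif11 had CCAAT boxes and no match to either CHR form searched in this window, and other forms were not searched. Mcm3 and Mcm6 each held a pair of E2F matches, overlapping each other in Mcm6, and Prim2 held none of the 3 motifs. Over the mitotic members with a promoter, Ccnb2 among them, 16 of 21 held a CHR (76.2%), against 19.7% of all 33469 promoters in the table, and 2 of 11 S phase members did (18.2%, Mcm2 and Rrm1). The E2F site was in 6 of 11 S phase promoters (54.5%; Mcm2, Mcm3, Mcm5, Mcm6, Ezh2 and Pola1), in 1 of 21 mitotic promoters (4.76%, Cdk1) and in 2.14% of all promoters. The CCAAT box was in 76.2% of the mitotic and 72.7% of the S phase promoters, against 37.5% of all. Neither of the 2 promoters of the G1 and G1/S members in the table, Ccne1 and Cdkn1a, held any of the motifs. A match describes the letters in this window and does not show that a factor binds there.

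**Figure D1:**
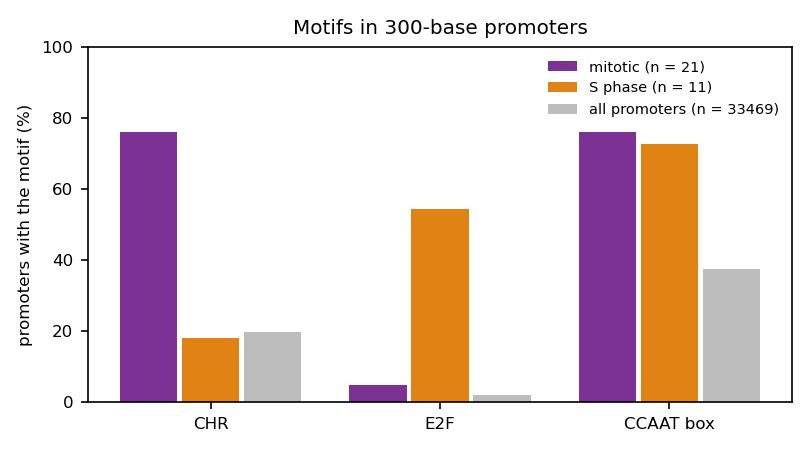
Share of 300-base promoters (y axis, percent) that hold a CHR, an E2F site or a CCAAT box, for 21 mitotic members, 11 S phase members and all 33469 promoters. The CHR bar is tallest for mitotic members (76.2%) and the E2F bar for S phase members (54.5%), while the CCAAT box is in 76.2% and 72.7%.

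The 7 libraries held 2263 to 4448 retained nuclei each in the 1-kidney group and 3983 to 5952 in the 2-kidney group, with 5581726 to 18338754 and 15168020 to 27069633 unique molecular identifiers (UMIs, counted transcripts). Nuclei had a median of 1440 to 1974 UMIs in 1-kidney libraries and 1872 to 2513 in 2-kidney libraries. The deposited files held a mean of 5293 barcodes per library, of which 31384 in all were retained; 117 barcode sequences occurred in more than 1 library. Nuclei were clustered without the cell cycle genes and clusters were named by their markers, giving podocyte-like, proximal tubule-like, thin limb-like, thick ascending limb-like, distal convoluted tubule-like, connecting tubule-like, principal cell-like, intercalated cell-like, endothelium-like and fibroblast-like classes, the 10 with at least 50 nuclei in every library, and the names are used below in that sense. A further 3 clusters stayed unnamed: a high-UMI cluster (3581 nuclei, median 8746 UMIs), a haemoglobin-led cluster (2035 nuclei, median 673 UMIs) and a Pappa2-led cluster (418 nuclei). Transcripts of the proximal tubule were counted in every class: podocytes, which lack its transporters, had a summed level of 12 proximal tubule markers of 5158 to 7957 CPM (UMI counts scaled to the total of the same nuclei) in 1-kidney and 2759 to 7672 CPM in 2-kidney libraries. Summed levels below are CPM over the nuclei named, and in them fewer cells of a type and less RNA per cell cannot be told apart.

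By the median member, transcripts of the mitotic genes lay mainly in nuclei that held other mitotic genes, whereas those of the S phase and G1 genes did not. These nuclei were chosen by mitotic genes, so a nucleus in S phase without their transcripts counted among the others. No nuclei were chosen by S phase genes, so how widely S phase transcripts were spread was not tested. A nucleus was counted as mitotic-positive for a gene when it held a UMI of at least 3 mitotic members other than that gene. Across all members there were 2235 nuclei with at least 3 mitotic members, with a median of 8233 UMIs, against 1920 UMIs in the other nuclei, and they held about 30.9% of all UMIs. Mitotic members had a median of 81.2% of their UMIs in mitotic-positive nuclei, S phase members 41.3% and G1 and G1/S members 35.9%. Iqgap3, a scaffold protein of the cell cortex, stood highest at 91.5% (87.9% to 94.9% over the 7 libraries), followed by Top2a at 90.2% (85.8% to 92.2%). Kif11 was lowest of the mitotic members at 38.2% (27.7% to 47.3%), where its mitotic-positive nuclei held 26.8% of all UMIs; in CPM it was 1.69 times as high there as in the other nuclei (1.44 to 1.93 over the 7 libraries). The next lowest, the mitotic kinase gene Plk1, was at 63.4% (53.6% to 72.7%).

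Among S phase members the highest share was that of Rrm2, the regulated subunit of ribonucleotide reductase, at 72.1% (65.9% to 78.8%), and the lowest that of Prim2 at 32.5% (24.7% to 44.7%). The repair gene Brca1 followed Rrm2 with 59.4%. Of the G1 and G1/S members, Ccne1, which codes for cyclin E1, had 71.6% of its 88 UMIs in mitotic-positive nuclei (53.8% to 94.4%). Ccnd2 (cyclin D2) had 24.1% (13.3% to 38.1%) and Cdk6, the cyclin D kinase, 24.9%, so that in CPM Cdk6 was at 0.742 times its level in the other nuclei. With each nucleus thinned to 1000 UMIs and at least 2 other mitotic members asked for, a setting chosen after seeing the data, the medians were 65.2% (mitotic), 18.9% (S phase) and 9.59% (G1 and G1/S), in nuclei that held about 5.08% of all UMIs. The median ratio of CPM in mitotic-positive nuclei to CPM in the others was 36.3 for mitotic, 4.37 for S phase and 2.05 for G1 and G1/S members after thinning, and 9.78, 1.58 and 1.28 as deposited.

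**Figure D2:**
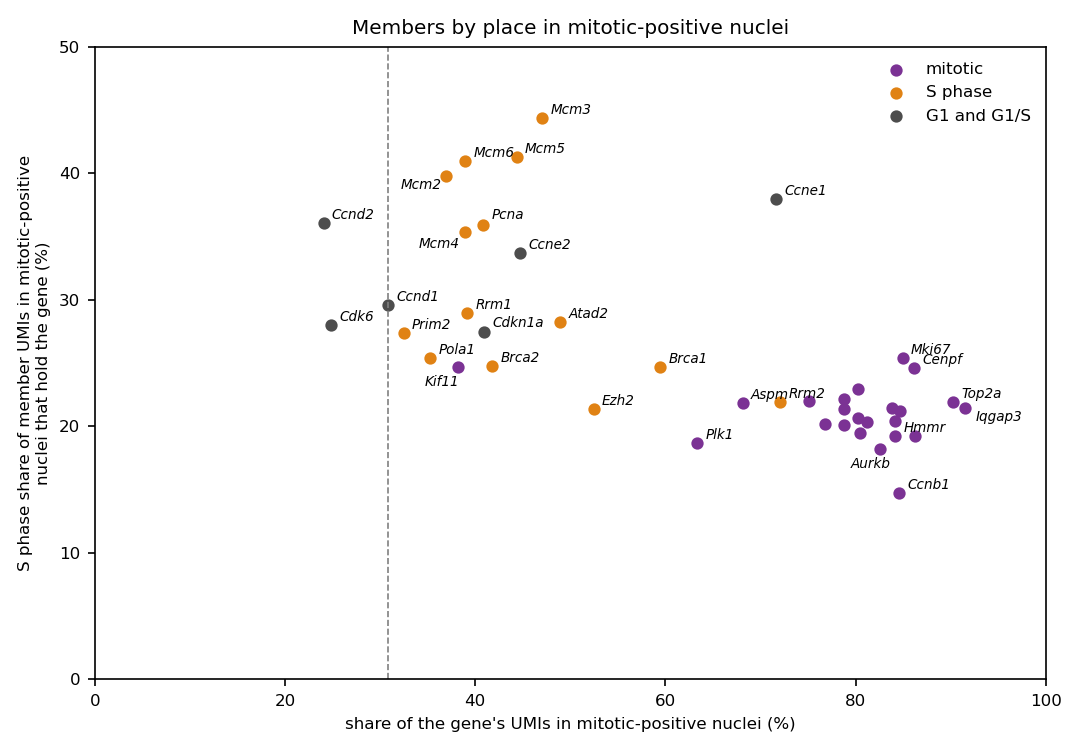
Each point is a member; x, the percent of its UMIs in nuclei with at least 3 other mitotic members (the dashed line marks the share of all UMIs, 30.9%); y, the S phase percent of the other members' S phase and mitotic UMIs in those nuclei that hold the gene. Mitotic members gather at the right and low, Mcm genes higher, from 35.4% (Mcm4) to 44.3% (Mcm3), and Kif11 sits apart from the other mitotic members at 38.2% on the x axis.

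Within the mitotic-positive nuclei, the mix of the other members' transcripts moved with the gene a nucleus held. For each gene the S phase share was taken as S phase UMIs over S phase and mitotic UMIs, with the gene's own UMIs left out both of the share and of the choice of nuclei. Nuclei with a Ccnb1 UMI had an S phase share of 14.7%, the lowest of all members, against 28.4% in those without it. Nuclei with a Cenpf UMI, a kinetochore protein made from G2 on, had 24.6% against 51.6%, and nuclei with Hmmr, a spindle protein, 19.2% against 34.4%. For 22 of 23 mitotic members the share was lower with the gene than without it in each of the 7 libraries, and Kif11 was the exception (24.7% against 27.1%, lower in 5 of 7).

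The S phase genes went the other way. Nuclei with Mcm3 had an S phase share of 44.3% against 23.1% without it, the highest of all members, and the shares with Mcm5, Mcm6 and Mcm2 were 41.3%, 41.0% and 39.8%. The share was higher with the gene in all 7 libraries for 10 of 14 S phase members and for 5 of 6 G1 and G1/S members. Rrm2 was higher in 1 library of 7 (21.9% against 25.1%), and Ezh2, the histone methyltransferase of Polycomb complex 2, in 4 (21.4% against 19.9%). Pcna, the replication clamp, and Mcm5 were higher in 6 of 7, as was Ccne1 among the G1 and G1/S members. A nucleus with more UMIs is more likely to hold any one gene, and that part of these shares was not tested.

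Between cell classes the mitotic genes varied more than the S phase genes. Summed mitotic CPM, as the mean of 7 libraries, ran from 891 ± 530 in connecting tubule and 868 ± 447 in distal convoluted tubule through thin limb (698 ± 461), thick ascending limb (643 ± 296), proximal tubule (580 ± 210) and endothelium (551 ± 218) to intercalated cells (362 ± 167), fibroblasts (357 ± 174), principal cells (332 ± 217) and podocytes (92.7 ± 37.4). No class in this order differed from its neighbour beyond the SDs. Summed S phase CPM ran from 464 ± 66.0 in endothelium down to 337 ± 47.7 in proximal tubule and 210 ± 32.4 in podocytes, the last of which lay below the rest beyond the SDs. All 23 mitotic members had their lowest class mean in podocytes, and 20 had their highest in connecting tubule (13) or distal convoluted tubule (7), with no top class apart from the second beyond the SDs. With clusters built with the cell cycle genes, 24 of the 43 members were lowest in podocytes, against 38 here. The edgeR fit of podocytes was the same in both, with 6152 genes tested and a lowest adjusted p of 0.0275. Mki67 was at 148 ± 114 CPM in connecting tubule and 141 ± 64.6 CPM in distal convoluted tubule, against 6.83 ± 5.93 CPM in podocytes.

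The remaining mitotic members peaked elsewhere: Kif11 in proximal tubule (106 ± 20.5 CPM) and Diaph3, a formin, and Plk1 in thin limb. Of the S phase members 10 of 14 and of the G1 and G1/S members 5 of 6 were lowest in podocytes. S phase members had their highest means in endothelium (4 genes: Mcm3, Mcm4, Atad2 and Pola1), thin limb (3), thick ascending limb (2) and 5 other classes with 1 gene each. Ccnd1, which codes for cyclin D1, was the only member whose highest class lay above the second beyond the SDs, at 112 ± 11.9 CPM in proximal tubule and 89.9 ± 5.99 CPM in thick ascending limb. Ccnd2 was lowest in proximal tubule (0.303 ± 0.251 CPM) and highest in endothelium (19.9 ± 9.71 CPM), so the 2 D cyclins were highest in different classes. Cdk6 was highest in principal cells (363 ± 91.6 CPM).

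**Figure D3:**
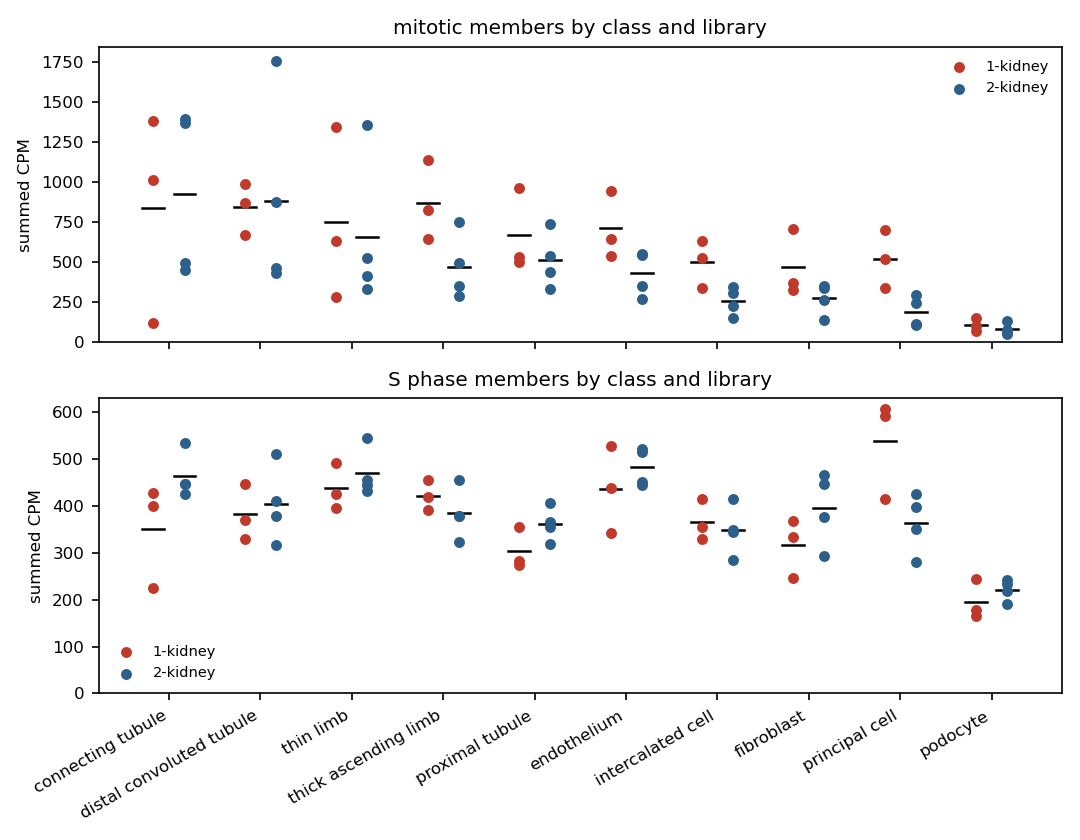
Summed CPM of the 23 mitotic members (top) and the 14 S phase members (bottom) in 10 cell classes; each point is a library, 1-kidney left of 2-kidney, and bars are group means. Mitotic sums spread from 50.9 CPM in 1 podocyte sum to 1761 CPM in 1 distal convoluted tubule sum, while S phase sums stay between 165 and 608 CPM.

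Over all retained nuclei the mitotic genes were higher on average in the 1-kidney libraries, but the groups overlapped and no gene passed the test. Summed mitotic levels were 864, 879 and 623 CPM in 1-kidney libraries (789 ± 144, SD, n = 3) and 784, 485, 360 and 386 CPM in 2-kidney libraries (504 ± 195, n = 4), a log2 ratio of means of 0.65. The first 2-kidney library lay among the 1-kidney libraries and the 2 libraries of set P1117B were lowest. That first library had the highest 2-kidney value for 22 of 23 mitotic members and lay above the third 1-kidney library for 21 of them. Without set P1117B the log2 ratio was 0.31, and it was 0.51 without the unnamed clusters.

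All 23 mitotic members had a log2 fold change above 0, with a median of 0.53, where 49.1% of the 14951 genes tested lay above 0 with a median of −0.0092. By edgeR's quasi-likelihood test with Benjamini-Hochberg adjustment, 0 members and 0 genes in all were called (0%), and DESeq2 called 4 members and 3.6% of 13768 genes. At an unadjusted p under 0.05 there were 10 mitotic members higher in 1-kidney libraries and 0 lower, where 10.4% of all genes were higher and 10.1% lower. The direction rested in part on the set: without P1117B 21 of 23 lay above 0 with a median of 0.20, and with the set as a term 22 of 23 with a median of 0.22. Without the second 1-kidney library 21 of 23 were above 0 (median 0.42).

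Mki67 was at 158, 140 and 93.0 CPM in 1-kidney libraries and at 108, 57.3, 39.2 and 41.9 CPM in 2-kidney libraries. Only the first 2-kidney library reached into the 1-kidney range, and the log2 fold change was 1.13 ± 0.31 (SE; edgeR adjusted p = 0.172). DESeq2 gave 1.11 with an adjusted p of 0.0256, and without set P1117B the edgeR value was 0.70. Ccnb1 had the smallest p of the mitotic members, at 5.91, 6.23 and 4.69 CPM in 1-kidney libraries and 3.89, 2.55, 1.82 and 2.84 CPM in 2-kidney libraries. These groups did not overlap; the log2 fold change was 1.05 ± 0.26 (edgeR adjusted p = 0.168; DESeq2 adjusted p = 0.0222).

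Kif11 was the other mitotic member without overlap, at 114, 127 and 88.4 CPM in 1-kidney libraries and 87.5, 87.1, 72.7 and 62.1 CPM in 2-kidney libraries (log2 fold change 0.53 ± 0.17, edgeR adjusted p = 0.185). The gap between the third 1-kidney library and the first 2-kidney library was under 1 CPM. Of all 14951 genes, 7.99% had all 1-kidney libraries above all 2-kidney libraries and 10.7% the reverse. Cenpf reached 167, 161 and 108 CPM in 1-kidney libraries and 141, 81.1, 48.9 and 51.9 CPM in 2-kidney libraries, with overlap. Top2a, at 60.4, 58.5 and 41.4 CPM in 1-kidney libraries, was highest of all in the first 2-kidney library at 64.0 CPM, with 32.1, 22.9 and 28.5 CPM in the others. Iqgap3 was at 19.3, 17.7 and 12.6 CPM in 1-kidney libraries and 18.8, 12.6, 10.2 and 11.2 CPM in 2-kidney libraries, also with overlap.

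The smallest mitotic differences were those of Ect2, an exchange factor of cytokinesis, and Cdk1, the kinase of cyclin B. Ect2 had 15.05, 14.9 and 11.7 CPM in 1-kidney libraries and 14.2, 12.3, 12.4 and 15.04 CPM in 2-kidney libraries (log2 fold change 0.06 ± 0.16). Cdk1 had 3.40, 4.77 and 3.00 CPM in 1-kidney libraries and 5.08, 2.38, 2.99 and 4.10 CPM in 2-kidney libraries (0.08 ± 0.29). In both genes the groups covered the same range. Bub1, Bub1b and Ttk, kinases of the spindle checkpoint, had log2 fold changes of 0.28, 0.28 and 0.45 and overlapped. The other mitotic members, also with overlap, lay between 0.16 for Ccna2, which codes for the cyclin of S phase and G2, and 0.85 for Aspm: Diaph3, Anln and Aurkb, genes of cytokinesis and its kinase, were at 0.19, 0.23 and 0.39, Kif23 at 0.45, Plk1 at 0.53, the kinetochore genes Knl1 and Cenpe at 0.53 and 0.79, and Hmmr, Tpx2 and Kif20b at 0.63, 0.69 and 0.70.

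**Figure D4:**
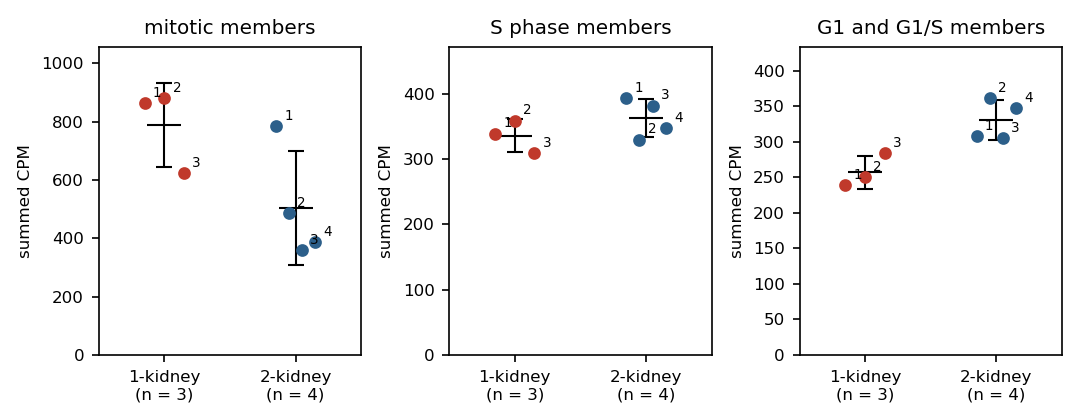
Summed CPM over all retained nuclei of the mitotic (left), S phase (middle) and G1 and G1/S members (right); each point is a library with its replicate number, 1-kidney (n = 3) left of 2-kidney (n = 4), and bars give mean and SD. The 1-kidney points reach from 623 to 879 CPM and the 2-kidney points from 360 to 784 CPM on the left, overlap in the middle, and on the right the 1-kidney points (239 to 283 CPM) lie below all 2-kidney points (305 to 361 CPM).

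The S phase genes showed no such shift as a group. Their summed levels were 339, 359 and 309 CPM in 1-kidney libraries (336 ± 24.97) and 393, 330, 382 and 347 CPM in 2-kidney libraries (363 ± 29.4), overlapping, with a log2 ratio of means of −0.11. Pola1 and Prim2 gave 11689 and 7706 of the 43914 S phase UMIs, so the sum rests largely on them. In CPM they were only 1.22 and 1.08 times as high in mitotic-positive nuclei as in the others. Of 14 members 5 had a log2 fold change above 0 and the median was −0.17; edgeR called 0, with 1 higher and 1 lower at an unadjusted p under 0.05, and DESeq2 called 0 of these 14. The 5 above 0 were Brca1, Brca2, Atad2, Ezh2 and Rrm2, and the 9 below 0 included all 5 Mcm genes, Pcna, Rrm1 and the initiation genes Pola1 and Prim2.

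Prim2 had the smallest p of the S phase members, at 41.4, 50.3 and 42.2 CPM in 1-kidney libraries and 51.7, 55.4, 83.6 and 76.6 CPM in 2-kidney libraries. All 1-kidney values lay below all 2-kidney values, and set P1117B was highest; the log2 fold change was −0.56 ± 0.20 (edgeR adjusted p = 0.205) and −0.23 without that set. Pola1, the catalytic subunit of the DNA polymerase that primase forms a complex with, had the same order, at 67.9, 83.6 and 77.6 CPM in 1-kidney libraries and 89.9, 84.4, 121 and 100 CPM in 2-kidney libraries (−0.35 ± 0.16). Atad2, a chromatin ATPase, was at 46.8, 39.4 and 35.1 CPM in 1-kidney libraries and 37.8, 30.3, 31.6 and 30.3 CPM in 2-kidney libraries, with overlap (0.34 ± 0.14, edgeR adjusted p = 0.222). Rrm2 was at 3.94, 2.51 and 3.00 CPM in 1-kidney libraries and 3.43, 3.48, 2.67 and 2.03 CPM in 2-kidney libraries, within the same range. The log2 fold changes of the helicase genes were −0.23 (Mcm2), −0.12 (Mcm3), −0.37 (Mcm4), −0.23 (Mcm5) and −0.48 (Mcm6), that of Pcna −0.51, and all overlapped, as did Rrm1 (−0.07), Brca1 (0.14), Brca2 (0.17) and Ezh2 (0.26).

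The summed G1 and G1/S level was lower in every 1-kidney library, at 239, 250 and 283 CPM (257 ± 23.4), than in every 2-kidney library, at 308, 361, 305 and 347 CPM (330 ± 28.2). Cdk6 carried most of this sum, with 138, 149 and 172 CPM in 1-kidney libraries and 198, 256, 206 and 242 CPM in 2-kidney libraries. Its groups did not overlap, and its log2 fold change was −0.54 ± 0.16 (edgeR adjusted p = 0.181; DESeq2 −0.56, adjusted p = 0.0436) and −0.54 without set P1117B. Ccnd1 was also lower in every 1-kidney library, at 77.2, 81.3 and 84.7 CPM, than in the 2-kidney libraries at 93.6, 88.3, 87.1 and 90.4 CPM (−0.12 ± 0.11).

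Cdkn1a, which codes for the kinase inhibitor p21, went the other way, at 8.96, 8.49 and 15.3 CPM in 1-kidney libraries and 2.83, 8.18, 2.79 and 3.10 CPM in 2-kidney libraries. The second 2-kidney library stood near the 1-kidney values and the rest well below them; the log2 fold change was 1.41 ± 0.41 (edgeR adjusted p = 0.181; DESeq2 1.37, adjusted p = 0.0345). Ccne2, which codes for cyclin E2, was at 9.50, 8.62 and 8.51 CPM in 1-kidney libraries and 7.91, 7.25, 5.34 and 7.54 CPM in 2-kidney libraries, without overlap (0.36 ± 0.18). Ccne1 and Ccnd2 overlapped: Ccne1 was at 1.79, 0.794 and 0.382 CPM in 1-kidney libraries and 1.05, 0.522, 0.729 and 0.554 CPM in 2-kidney libraries, and Ccnd2 at 2.69, 1.53 and 2.24 CPM in 1-kidney libraries and 4.48, 1.22, 2.51 and 3.25 CPM in 2-kidney libraries.

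Set against each other within a library, the phases gave a ratio that did not overlap between the groups. The ratio of mitotic to S phase UMIs was 2.55, 2.45 and 2.01 in 1-kidney libraries (2.34 ± 0.285) and 2.00, 1.47, 0.943 and 1.11 in 2-kidney libraries (1.38 ± 0.466). The third 1-kidney library and the first 2-kidney library were next to each other, 2.01 against 2.00, and set P1117B had the lowest ratios. Pola1 and Prim2, both highest in set P1117B, held a large part of the S phase UMIs in this ratio. The ratio was without overlap also in endothelium (1.64 ± 0.354 in 1-kidney and 0.875 ± 0.221 in 2-kidney libraries), in fibroblasts (1-kidney 1.47 ± 0.482, 2-kidney 0.672 ± 0.138) and in intercalated cells (1-kidney 1.36 ± 0.391, 2-kidney 0.732 ± 0.195). It overlapped in proximal tubule, thin limb, thick ascending limb, distal convoluted tubule, connecting tubule, principal cells and podocytes.

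Nuclei with at least 3 mitotic members had an S phase share of 16.2%, 20.6% and 21.8% in 1-kidney libraries and 22.3%, 24.3%, 34.3% and 30.8% in 2-kidney libraries. The 1-kidney shares (19.5% ± 2.98) all lay below the 2-kidney shares (27.9% ± 5.62). Of the 18498 S phase UMIs in these nuclei, 4118 were of Pola1 and 2503 of Prim2. In these nuclei the mitotic sum was 2041 ± 916 CPM in 1-kidney and 1423 ± 477 CPM in 2-kidney libraries and the S phase sum 470 ± 112 CPM in 1-kidney and 523 ± 37.4 CPM in 2-kidney libraries, and both overlapped. Outside them the mitotic sum was 222 ± 51.1 CPM in 1-kidney and 144 ± 31.1 CPM in 2-kidney libraries, also with overlap. Of these nuclei 46.8%, 58.5% and 62.6% lay in the unnamed high-UMI cluster in 1-kidney libraries and 52.6%, 50.7%, 56.7% and 50.5% in 2-kidney libraries.

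Within classes, 1 member passed the test, Kif11 in fibroblasts, where 3.31% of the 6836 genes tested were called (1.14% higher in 1-kidney libraries); over the 10 classes together 0.308% of 76583 gene tests were called. Kif11 in fibroblasts was at 100, 129 and 68.9 CPM in 1-kidney libraries and 44.9, 59.5, 46.8 and 29.1 CPM in 2-kidney libraries, from 9, 53 and 16 UMIs in 1-kidney and 31, 16, 18 and 17 UMIs in 2-kidney libraries. All 1-kidney values lay above all 2-kidney values, and Kif11 rose with a log2 fold change of 1.27 ± 0.31 (edgeR adjusted p = 0.0338). Of its 160 fibroblast UMIs, 85.6% lay outside mitotic-positive nuclei, and there it was at 106, 131 and 59.97 CPM in 1-kidney libraries and 44.4, 59.5, 32.9 and 21.8 CPM in 2-kidney libraries.

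Proximal tubule markers moved with this result. All 12 of the 12 had UMIs in the fibroblasts of every library, and their summed level in fibroblasts was 28215 to 35533 CPM in 1-kidney libraries (30712 ± 4176) and 11854 to 19629 CPM in 2-kidney libraries (16666 ± 3604), without overlap, and the phosphate transporter gene Slc34a1 alone was at 22548 ± 3194 CPM in 1-kidney and 11083 ± 3698 CPM in 2-kidney libraries. Outside mitotic-positive nuclei, over all libraries, Kif11 was at 102 CPM in a small macrophage-like class and 94.3 CPM in proximal tubule. Endothelium was at 58.2 CPM and fibroblasts at 55.3 CPM. The other classes ran from 46.4 CPM in thick ascending limb down to 12.2 CPM in podocytes. The part of proximal tubule transcripts in the Kif11 result was not tested. The marker sum was also without overlap in endothelium (26977 to 43282 CPM in 1-kidney and 11735 to 23657 CPM in 2-kidney libraries), thick ascending limb (1-kidney 21724 to 24086 CPM, 2-kidney 11657 to 21239 CPM), distal convoluted tubule (1-kidney 14530 to 15456 CPM, 2-kidney 6599 to 14448 CPM) and connecting tubule (1-kidney 12502 to 18853 CPM, 2-kidney 8222 to 12240 CPM). The call was lost without set P1117B (adjusted p = 0.11), with the set as a term (0.0992), and without the first or second 1-kidney library (0.0888 and 0.321) or replicate 3 or 4 of the 2-kidney group (0.0612 and 0.0763), all by edgeR. It was also lost with all barcodes and with classes from marker scores.

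Cenpf in fibroblasts was at 89.3, 107 and 34.4 CPM in 1-kidney libraries and 37.7, 14.9, 39.0 and 37.6 CPM in 2-kidney libraries (log2 fold change 1.25, edgeR adjusted p = 0.0727). The third 1-kidney library lay within the 2-kidney range. In all, 5 mitotic members passed the filter on low counts in fibroblasts.

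Principal cells, the water-reabsorbing cells of the collecting duct, had the largest log2 fold change of any member in the 10 classes. Mki67 there was at 199, 51.4 and 166 CPM in 1-kidney libraries and 27.3, 0, 6.76 and 5.68 CPM in 2-kidney libraries, from 33, 10 and 106 UMIs in 1-kidney and 18, 0, 5 and 6 UMIs in 2-kidney libraries. The groups did not overlap, and the log2 fold change was 3.77 ± 0.59 (edgeR adjusted p = 0.081; DESeq2 adjusted p = 0.0418). Principal cells held 25 nuclei with at least 3 mitotic members over all 7 libraries, so these UMIs came from few nuclei. The summed proximal tubule markers in the class were 8836 to 13275 CPM in 1-kidney and 3378 to 9969 CPM in 2-kidney libraries, with overlap, and their part in the result was not tested. The mitotic sum of the class was 704, 339 and 523 CPM in 1-kidney libraries (522 ± 182) and 244, 106, 296 and 113 CPM in 2-kidney libraries (190 ± 95.5), again without overlap. Ezh2 was at 132, 92.5 and 59.5 CPM in 1-kidney libraries and 44.0, 25.9, 37.9 and 34.1 CPM in 2-kidney libraries, also without overlap (1.26, edgeR adjusted p = 0.164).

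In the thick ascending limb, the salt-reabsorbing segment, Mki67 was at 238, 100 and 119 CPM in 1-kidney libraries and 121, 57.7, 29.4 and 29.99 CPM in 2-kidney libraries. The first 2-kidney library lay just above 2 of the 1-kidney libraries; the log2 fold change was 1.43 ± 0.43 (edgeR adjusted p = 0.216) and 0.79 without set P1117B. All 17 mitotic members that passed the filter there had log2 fold changes above 0 (median 0.86). Cdk6 in the same class was at 139, 147 and 182 CPM in 1-kidney libraries and 270, 256, 292 and 290 CPM in 2-kidney libraries. Every 1-kidney value was well below every 2-kidney value, with a log2 fold change of −0.80 ± 0.17 (edgeR adjusted p = 0.102; DESeq2 −0.81, adjusted p = 0.00892) that was −0.73 without set P1117B.

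Endothelium and intercalated cells, the acid-base cells of the collecting duct, had the same sign. In endothelium 13 of 13 mitotic members that passed the filter were above 0 (median 0.66), and Aspm, a spindle pole protein, was at 49.5, 43.2 and 26.2 CPM in 1-kidney libraries and 22.1, 13.6, 11.2 and 18.3 CPM in 2-kidney libraries, without overlap (1.26 ± 0.34, edgeR adjusted p = 0.16). In intercalated cells 6 of 7 were above 0 (median 1.29), and Top2a was at 52.1, 17.2 and 56.9 CPM in 1-kidney libraries and 20.7, 8.68, 9.80 and 6.39 CPM in 2-kidney libraries, from 4 to 28 UMIs a library. The second 1-kidney library fell within the 2-kidney range. In principal cells 8 of 8 (median 1.15) and in fibroblasts 5 of 5 (median 1.25) mitotic members that passed the filter were above 0. Of all genes in each fit, 49.3% lay above 0 in principal cells, 50.1% in fibroblasts, 49.2% in endothelium and 49.2% in intercalated cells. In every class a gene could pass the filter through the 1-kidney libraries alone, so these counts of signs do not test direction.

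The distal and connecting segments had no such sign. Their mean summed mitotic CPM was the highest of the named classes, but not above the next class beyond the SDs. The unnamed haemoglobin-led cluster had a higher mean (1174 ± 366 CPM). The pooled share of nuclei with at least 3 mitotic members was 4.42% in connecting, 3.58% in distal convoluted and 5.03% in proximal tubule. Mki67 in distal convoluted tubule was at 177, 135 and 144 CPM in 1-kidney libraries and 262, 91.8, 64.5 and 114 CPM in 2-kidney libraries, and in connecting tubule at 319, 190 and 21.9 CPM in 1-kidney libraries and 167, 247, 52.0 and 42.4 CPM in 2-kidney libraries. In both classes the groups overlapped, and the third 1-kidney library was the lowest of all 7 in connecting tubule. Of the mitotic members that passed the filter 8 of 16 (median −0.06) and 4 of 15 (median −0.22) were above 0. In thin limb 6 of 9 were above 0 (median 0.34), but 1 of 9 without set P1117B (median −0.43). No mitotic member passed the filter in podocytes. Prim2 in connecting tubule was at 19.9, 20.6 and 34.4 CPM in 1-kidney libraries and 35.3, 56.2, 76.0 and 78.3 CPM in 2-kidney libraries, without overlap (−1.30, edgeR adjusted p = 0.156), from 4 to 38 UMIs a library.

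**Figure D5:**
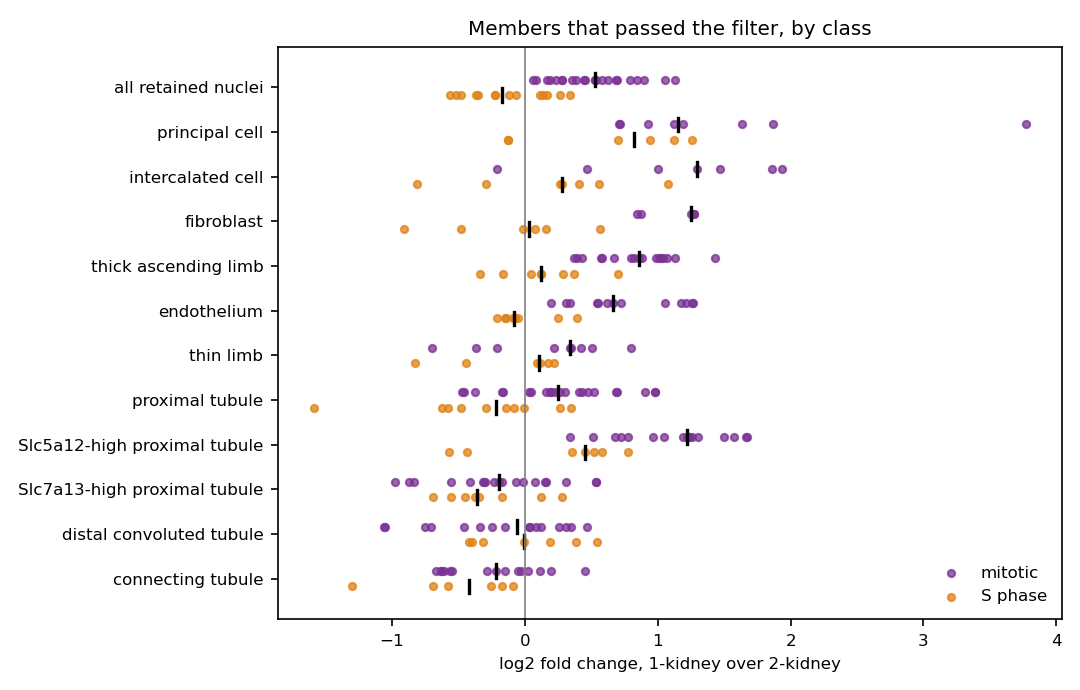
Log2 fold change, 1-kidney over 2-kidney, of each mitotic and S phase member that passed the filter on low counts (x axis), for all retained nuclei, 9 classes and the 2 proximal tubule clusters (rows); each point is a member and black ticks are medians. Mitotic points lie right of 0 in principal cells, fibroblasts, thick ascending limb, endothelium and the Slc5a12-high proximal tubule, and on both sides in distal convoluted and connecting tubule; Mki67 in principal cells is the point at 3.77.

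The S phase members kept no common sign over the classes. Their medians were 0.82 in principal cells (4 of 6 above 0), 0.28 in intercalated cells (5 of 7), 0.12 in thick ascending limb (6 of 8), −0.08 in endothelium (2 of 8), −0.22 in proximal tubule (2 of 10) and −0.42 in connecting tubule (0 of 6). Without set P1117B the medians of intercalated cells and thick ascending limb were −0.0097 (3 of 7) and −0.02 (3 of 8). In proximal tubule Prim2 was at 56.2, 67.8 and 52.0 CPM in 1-kidney libraries and 77.2, 72.8, 103 and 90.7 CPM in 2-kidney libraries, without overlap (−0.58 ± 0.18, edgeR adjusted p = 0.24). Mcm6 there had a log2 fold change of −1.59 ± 0.41 (edgeR adjusted p = 0.238).

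In the proximal tubule as a whole 17 of 22 mitotic members that passed the filter lay above 0 (median 0.25), and Mki67 was at 78.3, 127 and 54.2 CPM in 1-kidney libraries and 71.5, 51.9, 25.7 and 37.0 CPM in 2-kidney libraries, with overlap. Whether the group difference itself differed between proximal tubule and thick ascending limb was tested with an interaction term in edgeR, and 0 members were called, as were 0.00903% of 11071 genes. Of 19 mitotic members 1 had a positive interaction, with a median of −0.54, where 45.9% of all genes were positive. A gene could pass the filter through the 1-kidney sums of either class alone, so this count does not test direction. Ttk, Top2a and Kif11 passed an unadjusted p of 0.05, all with a negative interaction (a lower fold change in proximal tubule), and so did Ezh2 and Pola1 among the S phase members and, with the opposite sign, Cdk6. At that threshold 509 of the 11071 genes had a negative and 305 a positive interaction.

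The class consisted of 2 clusters, and the split into them was chosen after seeing the data. The Slc5a12-high cluster, named for a lactate transporter of the early segments, held 110, 148 and 181 nuclei in 1-kidney libraries and 150, 448, 835 and 722 in 2-kidney libraries. The Slc7a13-high cluster, named for an amino acid transporter of the last segment, held 506, 781 and 808 nuclei in 1-kidney libraries and 568, 879, 810 and 883 in 2-kidney libraries. The mix of the 2 clusters thus differed between libraries. Its part in the fold changes of the whole class, and in the interaction with thick ascending limb, was not tested. Mitotic sums in the Slc5a12-high cluster were 1402, 1483 and 963 CPM in 1-kidney libraries and 1007, 692, 277 and 472 CPM in 2-kidney libraries, with the first 2-kidney library above the third 1-kidney library. In the Slc7a13-high cluster they were 259, 814 and 362 CPM in 1-kidney libraries and 645, 471, 414 and 416 CPM in 2-kidney libraries, over the same range.

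Mki67 was at 209, 266 and 112 CPM in 1-kidney libraries and 119, 68.3, 28.1 and 48.8 CPM in 2-kidney libraries in the Slc5a12-high cluster. In the Slc7a13-high cluster it was at 36.7, 86.4 and 36.8 CPM in 1-kidney libraries and 54.8, 44.3, 22.6 and 28.1 CPM in 2-kidney libraries. The groups overlapped in both, by 1 library in the Slc5a12-high cluster. Kif20b, a kinesin of cytokinesis, was at 96.4, 109 and 79.1 CPM in 1-kidney libraries and 55.9, 48.5, 11.2 and 24.9 CPM in 2-kidney libraries in the Slc5a12-high cluster, without overlap. In the Slc7a13-high cluster Kif20b was at 12.5, 56.5 and 23.2 CPM in 1-kidney libraries and 57.7, 32.3, 29.0 and 26.1 CPM in 2-kidney libraries, with overlap.

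The interaction, Slc5a12-high minus Slc7a13-high, was 1.12 ± 0.21 for Mki67 and 1.80 ± 0.35 for Kif20b (edgeR adjusted p = 0.0672 for both) and 1.72 for Tpx2, a spindle assembly factor (adjusted p = 0.182). No member was called, where 0.0184% of 10879 genes were. At an unadjusted p under 0.05 there were 17 of 21 mitotic and 4 of 9 S phase members with a larger difference in the Slc5a12-high cluster, where 371 of the 10879 genes (3.41%) were higher in that sense; DESeq2 was not run on either interaction. All 21 mitotic members had a positive interaction (median 1.30), where 52.8% of all genes did. A gene could pass the filter through the 1-kidney sums of the Slc5a12-high cluster alone. These counts of members therefore do not test direction. Mki67 and Kif20b were called without the first 2-kidney library (adjusted p = 0.0177 and 0.037), and Kif20b and Tpx2 without the second (0.00748 and 0.0399); without set P1117B, Mki67 was at 0.95 (0.374) and Kif20b at 1.27 (0.338). The summed proximal tubule markers in the Slc5a12-high cluster were 58633 to 69389 CPM in 1-kidney libraries. The 2-kidney libraries there split by set, with 58829 and 65545 CPM in P1117 and 37313 and 37268 CPM in P1117B. In the Slc7a13-high cluster the sums were 29303 to 35581 CPM in 1-kidney libraries. Its 2-kidney libraries had 30541 and 30246 CPM in P1117 and 21427 and 20236 CPM in P1117B. The part of these markers in the difference was not tested.

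The share of nuclei with at least 3 mitotic members was counted for each library. Over all retained nuclei it was 6.81%, 11.4% and 7.93% in 1-kidney libraries and 8.11%, 5.04%, 5.07% and 6.38% in 2-kidney libraries, with overlap. With each nucleus thinned to 1000 UMIs, which left out 6173 shallower nuclei, the shares were 4.53%, 5.24% and 3.24% in 1-kidney libraries and 3.89%, 1.98%, 1.82% and 2.21% in 2-kidney libraries, still with overlap. The high-UMI cluster held 1231 of the 2235 such nuclei. It held 43.7% of all UMIs, had the highest median doublet score of the 20 clusters (0.0995, the others 0.0175 to 0.0732), and endothelial genes (Clec1a, Notch4) stood with a proximal tubule gene (Slc5a10) among its leading genes; the part of doublets in these nuclei was not tested. Without the unnamed clusters the difference of the means was 0.974 percentage points, against 2.57 with them.

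In the Slc5a12-high cluster the share was 17.3%, 25.7% and 11.6% in 1-kidney libraries and 8.67%, 4.69%, 3.47% and 4.85% in 2-kidney libraries, and after thinning 10.8%, 13.1% and 9.04% in 1-kidney and 4.70%, 3.39%, 1.35% and 2.81% in 2-kidney libraries. The groups did not overlap before or after thinning. With at least 2 mitotic members they overlapped as deposited, at 26.4%, 44.6% and 24.3% in 1-kidney and 25.3%, 12.9%, 12.1% and 14.0% in 2-kidney libraries, and did not after thinning or with at least 5 members. In the Slc7a13-high cluster it was 3.34% ± 1.47 in 1-kidney and 4.69% ± 0.885 in 2-kidney libraries, with overlap. Podocytes, the class used to read the background, had 1 such nucleus of 1044 (0.0958%) at a median of 2558 UMIs per nucleus, where the Slc5a12-high cluster had a median of 3868. After thinning podocytes had 0 of 989, which allows a share of up to 0.303%. The podocyte share with at least 2 members was 3.45% as deposited. After thinning that share was 2.22%, 1.17% and 1.77% in 1-kidney and 0.649%, 0%, 0% and 0.493% in 2-kidney libraries, without overlap, from 7 nuclei. The background at that setting was thus itself higher in 1-kidney libraries. In principal cells the share with at least 3 members was 2.56%, 4.00% and 1.90% in 1-kidney and 2.95%, 0.538%, 0.815% and 0.273% in 2-kidney libraries, with overlap, as there was with at least 2 or at least 5 members. After thinning it was 2.94% ± 1.61 in 1-kidney and 0.564% ± 0.740 in 2-kidney libraries, where the nearest libraries stood at 1.72% (1-kidney) and 1.65% (2-kidney), and with at least 2 members after thinning the groups overlapped. In intercalated cells the share with at least 3 members was 2.90% ± 0.843 in 1-kidney and 1.39% ± 0.342 in 2-kidney libraries, without overlap as deposited and with overlap after thinning. With at least 5 members they overlapped. With at least 2 they overlapped as deposited and did not after thinning. Endothelium (at least 2, as deposited) and thick ascending limb (at least 2, thinned) were also without overlap, and both overlapped in the other settings. The podocyte limit of 0.303% covers counting error only.

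A wider list of 156 further cell cycle genes, chosen with earlier results known, gave counts of the same order over all retained nuclei. Of its mitotic genes 50 of 59 tested lay above 0 (median 0.37), of its S phase genes 38 of 65 (median 0.09) and of its G1 and G1/S genes 14 of 27 (median 0.0059), beside 49.1% of all genes; both identifiers of Spag5 were counted among the 59. Over all retained nuclei edgeR called 0 of them and DESeq2 called Dbf4, Rb1 and Rpa1; at an unadjusted p under 0.05 there were 13 mitotic genes higher and 0 lower, and 7 S phase genes higher and 5 lower. Among classes, Usp1, which codes for the deubiquitinase of PCNA, rose in fibroblasts (log2 fold change 1.62, edgeR adjusted p = 0.0442). It was the only gene of this list called in the main edgeR fits of the 10 classes. The call was lost without set P1117B, with the set as a term and without any 1 library other than replicate 4 of the 2-kidney group. It was also lost with DESeq2, all barcodes, classes from marker scores and clusters built with the cell cycle genes.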

How the data were processed

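Nuclei of archived kidney pieces were profiled with 10X Genomics 3′ chemistry, per the labels' protocols, and the authors deposited 1 matrix of UMI counts per library, made with Cell Ranger 7.0 per the submitters' processing notes; no source used here names the genome build. The 1-kidney or 2-kidney group comes from the sample titles, and a replicate number, given by accession order, serves as a name and pairs nothing. The p-values measure the spread between these libraries.

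Barcodes under 200 genes or over 5% mitochondrial UMIs were left out. Scrublet's automatic threshold did not work on these libraries, so the barcodes with the highest scores were removed, at 0.8% per 1000 barcodes. Clusters came from Leiden clustering (scanpy 1.11.5, leidenalg 0.10.2; 2000 variable genes, 30 components, 20 neighbours, resolution 1) without the cell cycle genes. A cluster was named when at least 3 markers were 2-fold and a leading marker 4-fold above the rest; these limits and the doublet rule were set after seeing the data.

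UMI counts were summed per library and class and tested with edgeR 4.0.16 (TMM, filterByExpr, quasi-likelihood test, two-sided) in R 4.3.3, adjusted by Benjamini-Hochberg over all genes of a fit at 0.05. Levels are CPM (UMI counts scaled to the total) and are compared between libraries and classes for 1 gene at a time. On simulated counts with known changes, the test recovered 50% of 2-fold and 87% of 4-fold changed genes over all 14951 genes, and 49% and 84% in the fit of 6836 fibroblast genes. Over the 10 classes it recovered 21% to 56% of 2-fold changed genes, lowest in principal cells (21%) and thin limb (23%). The members, lists and tests were chosen with earlier results of these data known. All members are named; values per library are given for members with an adjusted p under 0.05 in any fit, with the smallest p of their phase, or with the highest or lowest share of UMIs in mitotic-positive nuclei, and further members were picked after their values were seen. Alternatives were other size factors, DESeq2 1.42.0, no filter on low counts, the library set as a term or left out, doublets kept, all barcodes, other classes and each library left out.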

Additional observations from a re-analysis of the deposited data

Results flagged for a closer look

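In a group of 4 libraries, a library was picked out where its gap to the nearest of the others was unusually large for the group's range. Of 91 such groups looked at, 4 were picked out, and 4.55 are expected at 1 in 20. Of the 4, 3 were values of the first 2-kidney library. Kif23, which codes for a motor of the central spindle, was at 30.1 CPM in that library over all retained nuclei, against 13.6 to 15.6 CPM in the other 2-kidney libraries and 22.2 to 28.2 CPM in the 1-kidney libraries. Brca1 was at 33.4 CPM in the same library, against 24.5 to 25.8 CPM in the other 2-kidney libraries. The share of podocytes with at least 3 mitotic members was 0.61% in that library, from 1 nucleus, and 0 in the other 6 libraries. Cdkn1a was at 8.18 CPM in the second 2-kidney library, against 2.79 to 3.10 CPM in the other 2-kidney libraries and 8.49 to 15.3 CPM in the 1-kidney libraries.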

How the results depend on the processing

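Of 349 alternative values, 306 were taken as unchanged. For a single gene this means that direction and side of the threshold were kept. For a count it means a change within a set factor, and for a summed level or share of nuclei a change within the SD between libraries. A further 19 counts, sums or shares moved, 16 single-gene values passed the threshold only under the alternative and 8 no longer did. Direction was not looked at for counts, sums and shares, and none of the single-gene values among the 349 turned direction. Medians over members, which are not among them, did turn: without set P1117B that of the mitotic members in thin limb was −0.43, against 0.34, and those of the S phase members in intercalated cells, thick ascending limb, thin limb and fibroblasts were also below 0, against above 0 with the set; some medians of the G1 and G1/S members turned too. Over all retained nuclei the number of members called was 0 by edgeR under every setting run and 4 by DESeq2. Per class it was 1, and became 3 with DESeq2, 19 with no filter on low counts, and 0 without set P1117B, with the set as a term, with all barcodes and with classes from marker scores, and 0 to 5 with a library left out. For the difference between the proximal tubule clusters it was 0 and became 0 to 2 with a library left out. The number of members lowest in podocytes was 38, and 24 with clusters built with the cell cycle genes. The median shares of UMIs in mitotic-positive nuclei were 65.2% (mitotic), 18.9% (S phase) and 9.59% (G1 and G1/S) after thinning with at least 2 other mitotic members, against 81.2%, 41.3% and 35.9%. The nuclei then held about 5.08% of all UMIs, against 30.9%, and the median CPM ratios were higher in all 3 phases (36.3, 4.37 and 2.05, against 9.78, 1.58 and 1.28). The log2 ratio of the mitotic sums ran from 0.52 to 0.94 with a library left out. The settings that leave out unnamed clusters, split the proximal tubule or thin for shares of UMIs were chosen after seeing the data. No paired analysis was possible because replicate numbers follow accession order and pair no animals. The 1-kidney group has no library of set P1117B, so values within that set cannot be had.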
